A study of Mus musculus with 96 samples.

Results

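Transcripts of 10 autophagy genes were followed in single C10 cells, out of the 40202 genes listed for each library. They were chosen by name, with earlier results of these data known. They are the cargo receptors Sqstm1 and Nbr1, and the ATG8 family genes Map1lc3a, Map1lc3b, Gabarap, Gabarapl1 and Gabarapl2. The rest are Ulk1, Becn1 and Wipi1, which act early in making the autophagosome. All 10 were listed in every file, and all 10 averaged 5 CPM or more across both groups (counts scaled to a total of 1000000), as did 9374 genes in all. C10 is a mouse lung line that the labels call alveolar type II epithelial. The 96 libraries, each of 1 sorted cell, comprise 48 of untreated cells (control) and 48 of cells that received RO-3306, a compound sold as a CDK1 inhibitor, at a labelled 10 nM over 36 h. That dose is low for this compound, and the labels do not settle whether its unit is right. No genotype, passage or culture is named for either group, so each group counts as 1 sample, cells are not replicates, and no p-value can be given.

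Macroautophagy encloses cytoplasm in a double membrane, the autophagosome, and delivers it to the lysosome. The ULK1 kinase and a lipid kinase complex that holds Beclin 1 start the membrane, WIPI proteins bind the lipid this complex makes, and proteins of the ATG8 family are coupled to the growing membrane. Receptors such as p62 (Sqstm1) and NBR1 bind both ubiquitinated cargo and ATG8 proteins, and are degraded along with the cargo. Transcript levels measure none of these steps, since flux through the pathway is set largely on proteins and membranes.

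A cell was kept if its library held at least 50000 counts and 1000 genes with a count. This left 29 control and 37 RO-3306 cells, with totals from 59979 to 6457215 counts in control (median 1753427) and from 295005 to 5321880 in RO-3306 (median 2234309). The median mitochondrial share was 3.40% of counts in control and 4.42% in RO-3306, and RO-3306 cells B3, at 56.0%, and A11, at 18.1%, stood apart from the next highest, at 9.42%. The titles carry letters A to D, whose meaning is not given. They held 10, 8, 6 and 5 kept control cells and 10, 10, 11 and 6 kept RO-3306 cells, and serve only to see whether a difference has 1 sign throughout. The markers gave little sign of the labelled cell type. Of 9 alveolar type II markers, Sftpa1, Sftpc, Sftpd, Slc34a2 and Napsa had no count in either group, and the 9 together had 23.2 CPM in control against 24.1 CPM in RO-3306. The 6 mesenchymal markers had 5579 CPM in control against 2523 CPM in RO-3306, and the 6 epithelial markers 1.78 against 0.978 CPM, with Krt18 and Cldn4 at 0. The 8 macrophage markers had 58.6 and 61.3 CPM, from 0 to 315 CPM in single control cells and from 0 to 436 CPM in single RO-3306 cells. Any part of these other transcripts in the autophagy results was not tested.

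The promoter windows of the 3 genes that passed the fold rule given below are shown because those genes shifted in the same direction. They come from RefSeq on GRCm38.p6, an older build than that of the count files, and run from 250 bases before to 50 bases after the start site in the table, in the direction of the gene. The windows lie at chr11:50210771-50211070 on the minus strand for Sqstm1, at chr8:121590188-121590487 on the plus strand for Map1lc3b, and at chr11:69991120-69991419 on the plus strand for Gabarap. The Sqstm1 span differs in length between this table and the count files, so their start sites may differ too. Capitals mark matches to the motifs searched.
Sqstm1: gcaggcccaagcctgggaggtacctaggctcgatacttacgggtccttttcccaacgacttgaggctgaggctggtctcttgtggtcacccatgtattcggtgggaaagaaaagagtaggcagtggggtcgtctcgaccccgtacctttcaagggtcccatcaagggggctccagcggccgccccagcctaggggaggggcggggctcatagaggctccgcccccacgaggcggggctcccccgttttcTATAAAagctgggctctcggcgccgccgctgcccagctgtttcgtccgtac
Map1lc3b: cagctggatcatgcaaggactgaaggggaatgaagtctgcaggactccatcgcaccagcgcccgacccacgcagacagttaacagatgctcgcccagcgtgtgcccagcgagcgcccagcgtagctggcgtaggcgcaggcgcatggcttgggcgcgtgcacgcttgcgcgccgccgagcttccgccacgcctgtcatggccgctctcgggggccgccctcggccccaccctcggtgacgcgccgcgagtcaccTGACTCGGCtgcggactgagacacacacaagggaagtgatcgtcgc
Gabarap: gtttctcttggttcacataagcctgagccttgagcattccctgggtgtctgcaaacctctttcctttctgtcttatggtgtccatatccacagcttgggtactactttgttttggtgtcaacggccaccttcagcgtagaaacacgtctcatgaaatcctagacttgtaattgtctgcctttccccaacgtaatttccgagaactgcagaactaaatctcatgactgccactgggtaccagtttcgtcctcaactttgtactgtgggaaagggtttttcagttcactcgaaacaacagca
The Map1lc3b window was 68.0% G and C and held 34 CG pairs, the Sqstm1 window 63.3% with 20 pairs, and the Gabarap window 45.7% with 7 pairs. The median of all 32851 promoter windows was 52.7% G and C. A window was found for 8 of the 10 genes, with 2 for Nbr1 and none for Becn1 or Map1lc3a. The search covered 4 motifs on both strands. The E-box CACGTG, a form bound by TFEB among others, was in none of the 9 windows and in 7.15% of all promoters. The core of the antioxidant response element, TGACNNNGC, was in the Map1lc3b window alone, as TGACTCGGC with its first base at +5, and in 12.4% of all promoters. TGATGNAAT, a form of the C/EBP-ATF composite site, was in none of the 9 and in 0.965% of all. TATAAA, a core promoter element added to the search after the windows were read, was in the Sqstm1 window alone, with its first base at -1, and in 13.6% of all. No motif overlapped another, and a match describes letters only.

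Counts of the kept cells were added up by group to give its CPM, and the ratio is log2 of RO-3306 over control with 1 CPM added to both. A gene was called where this ratio was at least 1 in size, with 1 sign in all 4 lettered sets. Sqstm1, Map1lc3b and Gabarap were called higher, which is 3 of 10 against 7.23% of all 9374 genes, and none was called lower, against 6.43% of all genes. Because the 10 genes were chosen with earlier results known, these shares are description only. Over the 10 genes the median ratio was 0.54, with 6 above and 4 below 0. Over all 9374 genes it was -0.22, with quartiles of -0.98 and 0.43. That centre moves with scaling: ratios would be up to 0.21 higher with TMM factors and up to 0.24 higher with DESeq2's. A ratio below 0 by less than this therefore has no settled sign. Small ratios above 0 only rise with these factors, but may differ in sign between lettered sets. Ratios also moved with mRNA length across all genes, from a median of 0.26 in the shortest length decile to -0.86 in the longest. Differences from the median of a gene's own decile, by its longest transcript, are given below for Nbr1, Becn1, Ulk1 and Rptor. The difference was 1.42 for Sqstm1, 1.38 for Map1lc3b, 1.22 for Gabarap, 1.30 for Gabarapl2 and 0.33 for Gabarapl1. For Map1lc3a it was -0.78 and for Wipi1 -0.52. All intervals are 95%. Those of sums and ratios cover counting error only, and counts include PCR copies. Those of shares of cells take cells as the unit and hold no spread between cultures.

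**Figure D1:**
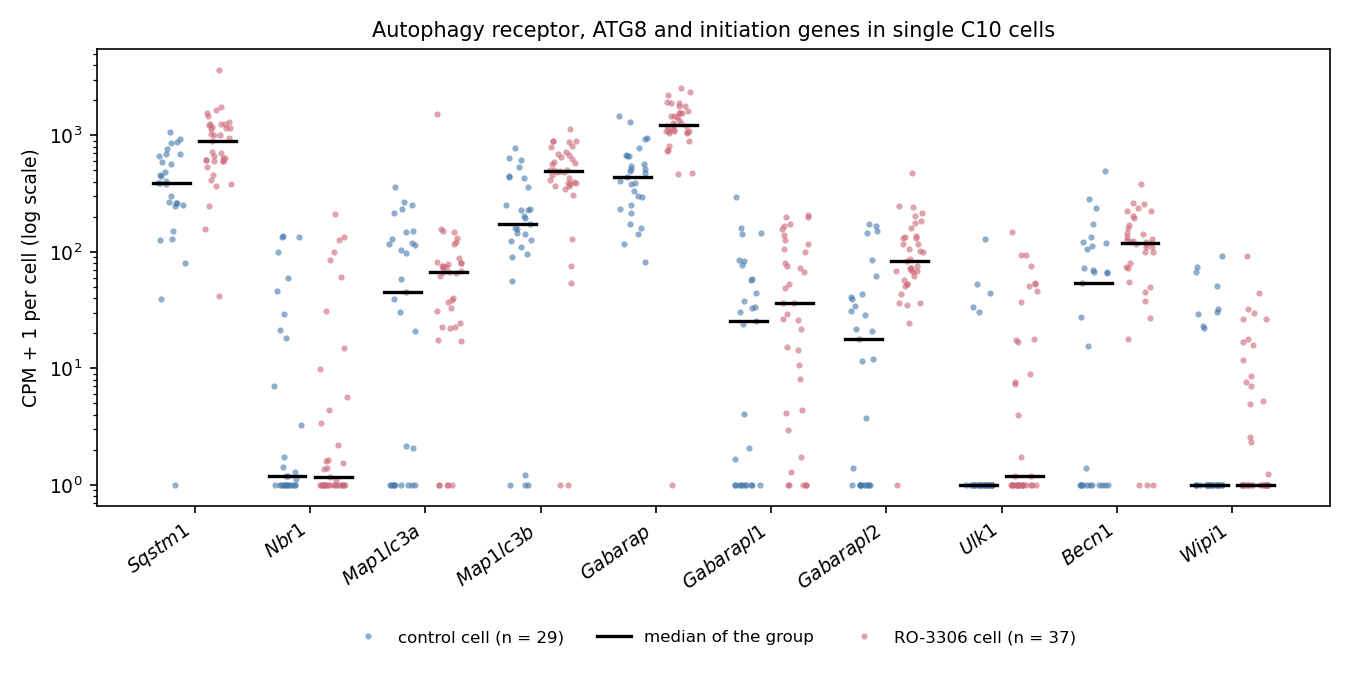
Level of each gene in every kept cell, as CPM + 1 on a log axis, for 29 control cells and 37 RO-3306 cells, with the median of each group as a bar. The RO-3306 medians of Sqstm1, Map1lc3b and Gabarap lie at 895, 495 and 1219 CPM, against 391, 171 and 440 CPM in control, while the cells of both groups overlap for every gene.

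Sqstm1 encodes p62, a receptor that also gathers cargo into bodies and binds KEAP1, the inhibitor of NRF2. It lies on chromosome 11 of GRCm39, from 50090979 to 50105303. Control cells ran from 0 to 1063 CPM with a median of 391 CPM, and RO-3306 cells from 40.7 to 3628 CPM with a median of 895 CPM. The groups overlapped: 32 of 37 RO-3306 cells were above the control median, 14 were above the highest control cell, and 2 of 29 control cells were above the RO-3306 median. The lowest RO-3306 cell was B3, the cell with the high mitochondrial share, and the highest was C11. Summed, the level was 410 CPM in control (405 to 415) and 943 CPM in RO-3306 (937 to 949), a ratio of 2.30 (2.27 to 2.33). The log2 ratio was 1.20, and 1.22, 1.13, 1.11 and 1.30 in sets A, B, C and D. These values were the most even over the sets of any of the 10 genes. Control levels by set were 317, 498, 398 and 430 CPM, and RO-3306 levels were 741, 1093, 863 and 1062 CPM, so that no set of one group reached a set of the other. Counts of Sqstm1 were fractional in 64.6% of the libraries that had any, which means that reads placed at several sites were split.

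Nbr1, a related receptor with similar domains, had 22.4 CPM in control (21.3 to 23.6) and 21.4 CPM in RO-3306 (20.5 to 22.3). The log2 ratio of the sums was -0.07. Its cells ran from 0 to 136 CPM in control and from 0 to 211 CPM in RO-3306, with medians of 0.20 and 0.18 CPM. The gene was caught in 17 of 29 and 20 of 37 cells, and single cells held much of its counts: control A3 held 37.3% and RO-3306 C5 held 33.5%. The set ratios were -0.11, -0.71, 3.13 and -3.52 in A to D, so the 2 receptors did not share a pattern here, and Nbr1 had no steady sign. Against the median of its mRNA-length decile, -0.61, Nbr1 lay 0.54 higher. It lies on chromosome 11, from 101442933 to 101472777.

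The ATG8 family has an LC3 and a GABARAP branch, whose proteins are cleaved and then joined to phosphatidylethanolamine. Coding sequences of the GENCODE M21 principal transcripts were 74.1% identical between Map1lc3a and Map1lc3b, 74.9% between Gabarap and Gabarapl1, 61.9% between Gabarap and Gabarapl2, 63.8% between Gabarapl1 and Gabarapl2, and 49.2% to 53.3% across the branches. The longest run shared exactly by any pair of their mRNAs was 17 bases, against reads of 150 bases. A read that lies whole within one of these mRNAs therefore has no exact match in another. Fractional counts, which come from reads placed at several sites, were still common for some of them. They occurred in 91.8% of the libraries with a Map1lc3b count, 81.8% for Gabarapl2, 46.2% for Gabarap, 25% for Map1lc3a and 5.88% for Gabarapl1. The other sites are not given by the files, so Map1lc3b and Gabarapl2 levels carry an uncertain share from similar sequences.

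Map1lc3b encodes LC3B, the protein most used to mark autophagosomes, and lies on chromosome 8, from 122317177 to 122325499. Control cells ran from 0 to 783 CPM with a median of 171 CPM, and RO-3306 cells from 0 to 1134 CPM with a median of 495 CPM. Of RO-3306 cells 32 of 37 were above the control median and 7 above the highest control cell, while 4 of 29 control cells were above the RO-3306 median. Summed, the level was 230 CPM in control (226 to 233) and 515 CPM in RO-3306 (511 to 520), a ratio of 2.25 (2.20 to 2.29) and a log2 ratio of 1.16. By set the ratios were 1.04, 1.09, 2.39 and 0.90. Set C stood out through its control cells, at 95.4 CPM against 257, 225 and 298 CPM in A, B and D. The RO-3306 sets lay close together, from 478 to 559 CPM.

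Map1lc3a, the LC3 paralogue with a shorter mRNA, went the other way in the sums. In control, cells ran from 0 to 356 CPM with a median of 44.6 CPM, and RO-3306 cells from 0 to 1507 CPM with a median of 65.6 CPM. Summed, it had 91.0 CPM in control (88.7 to 93.3) and 63.1 CPM in RO-3306 (61.5 to 64.7), a log2 ratio of -0.52, with -0.96, 0.23, -0.75 and -1.24 in sets A to D. It was caught in 20 of 29 control and 32 of 37 RO-3306 cells, so that RO-3306 had more cells with a count but less in the sum. The highest RO-3306 cell was B3, the cell with 56.0% mitochondrial counts. With each cell weighted equally the means were 85.5 and 98.5 CPM and the log2 ratio turned to 0.20. Without B3 the same means were 85.5 and 59.3 CPM, with a log2 ratio of -0.52. The gene lies on chromosome 2, from 155118284 to 155119993.

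Gabarap, first known as a GABA-A receptor associated protein and the founder of its branch, had the highest level of the family. It lies on chromosome 11, from 69882196 to 69885775. Control cells ran from 81.0 to 1470 CPM with a median of 440 CPM, and RO-3306 cells from 0 to 2544 CPM with a median of 1219 CPM. Only RO-3306 cell A11 had no count, a cell with 3178 genes and 18.1% mitochondrial counts, while 36 of 37 RO-3306 cells were above the control median and 12 above the highest control cell. Summed, the level was 516 CPM in control (511 to 521) and 1312 CPM in RO-3306 (1305 to 1319), a ratio of 2.54 (2.51 to 2.57) and a log2 ratio of 1.34. The sets gave 1.24, 1.63, 0.85 and 1.93. Cells differed less from each other in RO-3306, where the standard deviation was 40.2% of the mean, than in control, where it was 67.7%. That was not particular to Gabarap. This percentage was also lower in RO-3306 for Map1lc3b (52.1% against 86.5%), Gabarapl2, Becn1, Gabarapl1 and Ulk1. It was higher for Sqstm1 (66.1% against 64.8%), Nbr1, Map1lc3a and Wipi1. No such spread was taken over all genes.

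Gabarapl2, also called GATE-16, had the largest log2 ratio of the 10 genes and was not called, because set D did not share the sign. Single control cells held from 0 to 173 CPM with a median of 16.7 CPM, and RO-3306 cells from 0 to 470 CPM with a median of 82.5 CPM. Of RO-3306 cells 36 of 37 were above the control median and 7 above the highest control cell. Summed, it had 36.9 CPM in control (35.4 to 38.4) and 100.2 CPM in RO-3306 (98.2 to 102.3), a log2 ratio of 1.42. The sets gave 1.54, 1.96, 1.51 and -0.03. In set D the 5 control cells came to 88 CPM and the 6 RO-3306 cells to 86.4 CPM, and control cell D8, in that set, held 17.4% of all control counts of the gene. It lies on chromosome 8, from 112667335 to 112679547.

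Gabarapl1, the closest paralogue of Gabarap, showed a smaller shift. The control cells lay between 0 and 293 CPM with a median of 24.5 CPM, and RO-3306 cells from 0 to 204 CPM with a median of 35.4 CPM. No RO-3306 cell was above the highest control cell. Summed, it had 51.1 CPM (49.4 to 52.8) and 65.9 CPM (64.3 to 67.6), a log2 ratio of 0.36, and the sets gave 1.18, 0.09, -0.52 and 1.09. The RO-3306 sets were close, from 63.2 to 69.6 CPM, whereas the control sets ran from 29.4 to 91.2 CPM. It lies on chromosome 6, from 129510155 to 129519294.

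**Figure D2:**
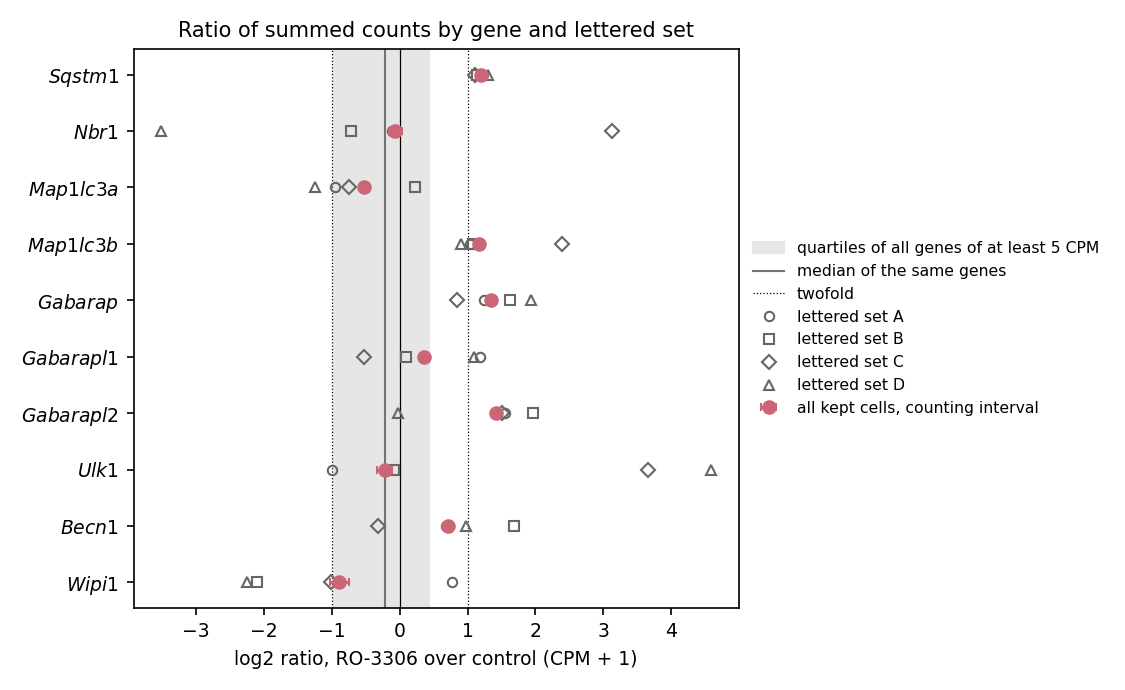
Log2 ratio of RO-3306 over control for the 10 genes, from the counts of all kept cells (filled points, with counting intervals) and within lettered sets A to D (open symbols). The grey band spans the quartiles of all 9374 genes, -0.98 to 0.43, and Sqstm1 has the tightest sets, from 1.11 to 1.30, while those of Nbr1 run from -3.52 to 3.13.

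Set against mRNA length, taken as the longest coding transcript in GENCODE M21, the family sum was 601 CPM per kb in control against 1320 CPM per kb in RO-3306. Gabarap made up 63.6% of it in control and 73.6% in RO-3306. Map1lc3b held 14.5% and 14.8%, Map1lc3a 13.6% and 4.30%, Gabarapl1 4.67% and 2.74%, and Gabarapl2 3.66% and 4.53%. The order in control was therefore Gabarap, Map1lc3b, Map1lc3a, Gabarapl1 and Gabarapl2, but below Gabarap it did not hold in the sets. In the control cells Map1lc3a was above Map1lc3b in sets C and D, Gabarapl2 was above Gabarapl1 in A and D, and Gabarapl1 was above Map1lc3b in C. In RO-3306 it was Gabarap, Map1lc3b, Gabarapl2, Map1lc3a and Gabarapl1, and Gabarapl2 and Map1lc3a changed places in sets B and D. These neighbours were not set apart by more than the spread between sets. With the median transcript length in place of the longest, Gabarapl1 came next after Map1lc3b in RO-3306, at 5.17% against 3.38% for Gabarapl2 and 3.21% for Map1lc3a. With each cell weighted equally, Map1lc3a was above Gabarapl2, at 6.57% against 4.85%. The Map1lc3a share was lower in RO-3306 in all 4 sets, at 3.40% to 4.69% against 10.5% to 22.8%. A share also falls where the rest of the sum rises. The level of Map1lc3a itself was lower in RO-3306 in sets A, C and D but not in B, where it was 60.0 CPM per kb in control and 70.4 CPM per kb in RO-3306. The GABARAP branch together came to 71.9% and 80.9%, and was higher in RO-3306 in sets A, B and D but not in C, where it was 80.6% and 79.4%. Shares depend on the lengths used and on reads from introns, which the counting included.

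**Figure D3:**
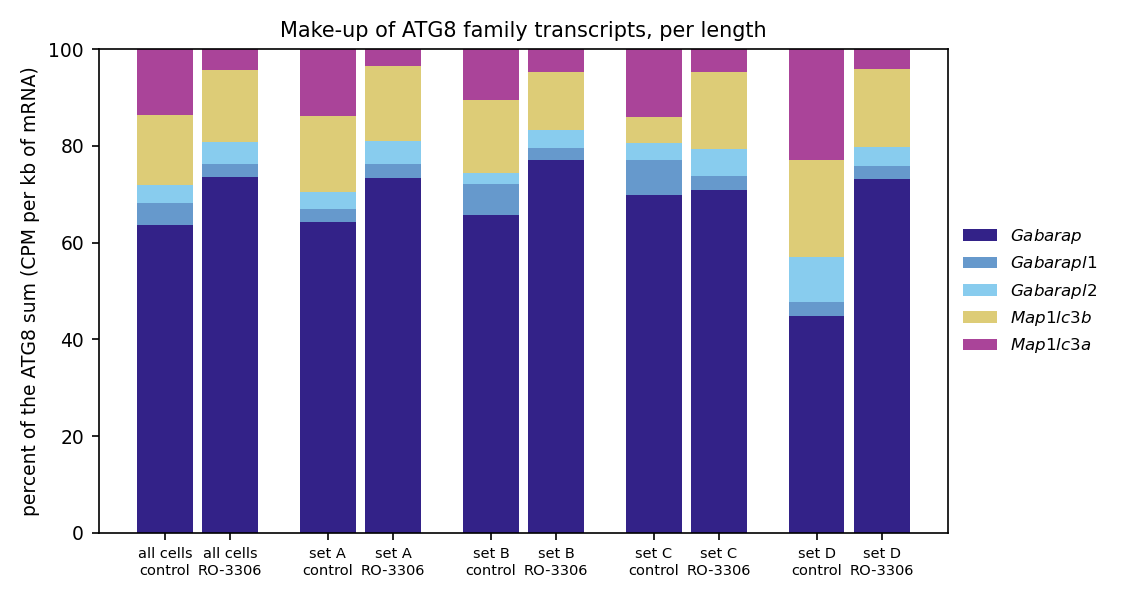
Share of each ATG8 gene in the family sum, as percent of CPM per kb of mRNA, for all kept cells and for each lettered set, with control and RO-3306 side by side. Gabarap is the largest part of every bar, and Map1lc3a takes 13.6% of the control bar and 4.30% of the RO-3306 bar.

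Of the genes for the early steps none was called. Becn1 encodes Beclin 1, a scaffold of the class III PI3-kinase complex, and lies on chromosome 11, from 101179084 to 101193112. Levels in control cells ran from 0 to 489 CPM with a median of 53.2 CPM, and RO-3306 cells from 0 to 381 CPM with a median of 117 CPM. Summed, it had 85.1 CPM (82.9 to 87.3) and 140 CPM (138 to 143), a log2 ratio of 0.72, with 0.67, 1.68, -0.32 and 0.98 in the sets. By its longest transcript, of 4365 nt, Becn1 fell in a length decile with a median of -0.61 and lay 1.32 above it. The median of its 5 transcripts is 725 nt, which falls in the shortest decile, and against that Becn1 lay 0.46 higher. Of RO-3306 cells 29 of 37 were above the control median, none above the highest control cell.

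Ulk1, the kinase that opens the pathway and is held back by mTORC1, had 18.6 CPM in control (17.6 to 19.7) and 15.9 CPM in RO-3306 (15.1 to 16.7), a log2 ratio of -0.22. Its control counts came from 5 of 29 cells, all in sets A and B, and cell A5 held 38.6% of them. In RO-3306 it was caught in 19 of 37 cells, the highest at 146 CPM. The sets gave -0.996, -0.09, 3.66 and 4.59, and the last 2 rest on control sums of 0, so their size comes from the added 1 CPM. More cells with a count thus went with a sum that was no higher. With each cell weighted equally the log2 ratio was 0.91, and against the median of its mRNA-length decile, -0.85, the ratio of the sums lay 0.63 higher. Ulk1 lies on chromosome 5, from 110932355 to 110957991.

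Wipi1, which binds phosphatidylinositol 3-phosphate on the forming membrane, had 15.8 CPM in control (14.9 to 16.8) and 8.06 CPM in RO-3306 (7.49 to 8.66), a log2 ratio of -0.89. Counts were found in 9 of 29 and 18 of 37 cells, with a highest cell of 90.3 CPM in each group. RO-3306 cell A9 held 42.6% of the counts of its group. The sets gave 0.77, -2.11, -1.02 and -2.24. The gene lies on chromosome 11, from 109464347 to 109502215, and 46.3% of its span overlaps Gm39442. Reads under such overlaps are lost or cannot be assigned to a strand, so Wipi1 is uncertain. Smaller overlaps touch Becn1 (3.16%, Cntd1), Gabarapl1 (1.02%, 1700101I11Rik) and Map1lc3b (0.79%, Zcchc14).

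Shares of cells with a count depend on depth, so each cell was thinned to 639000 reads, which left 25 control and 34 RO-3306 cells. The median cell then had a count of 7 of the 10 genes in control, from 3 to 10, and of 8 in RO-3306, from 4 to 10. Gabarapl2 was caught in 18 of 25 control cells, or 72.0% (50.6% to 87.9%), and in 34 of 34 RO-3306 cells (89.7% to 100%), and Becn1 in 16 of 25 (64.0%) and 32 of 34 (94.1%). Gabarap was caught in every cell of both groups, and Sqstm1 in 24 of 25 and 34 of 34. The only kept RO-3306 cells without a count of Gabarap (A11, 515218 counts) or of Gabarapl2 (B3, 295005 counts) were too shallow and were left out here. Nbr1 was caught in 9 of 25 and 14 of 34 cells, and Ulk1 in 5 of 25 and 14 of 34. Without thinning the shares for Gabarapl2 were 65.5% and 97.3%, for Becn1 62.1% and 91.9%, and for Ulk1 17.2% and 51.4%. The cells differed in this way in general. The median number of genes with a count at equal depth was 4583 in control and 5966.5 in RO-3306, and over all 9374 genes the median difference in share was 9.06 points, against 11.2 points over the 10 genes. The part of this difference in the results for single genes was not tested.

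**Figure D4:**
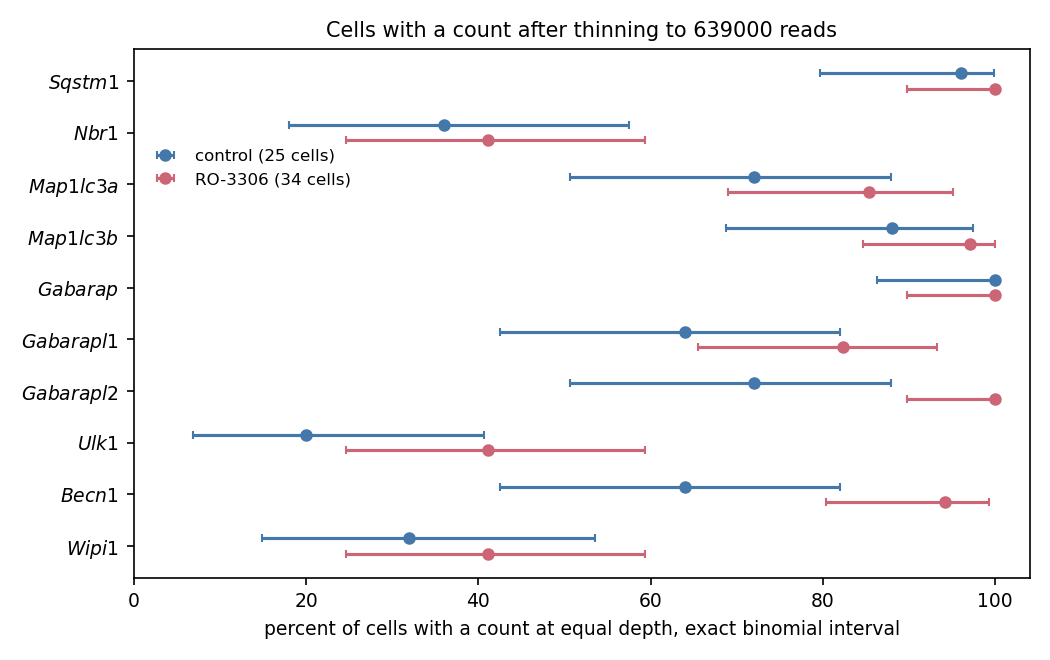
Percent of cells with a count of each gene after thinning to 639000 reads, with exact 95% binomial intervals, for 25 control and 34 RO-3306 cells. Gabarapl2 shows the intervals furthest apart, 50.6% to 87.9% in control and 89.7% to 100% in RO-3306, and those of Nbr1 and Wipi1 largely overlap. The intervals take cells as the unit, and cells are not replicates of a group.

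Across cells of a group the called genes were weakly related. At equal depth Spearman's rho between Sqstm1 and Map1lc3b was -0.31 over 25 control cells and -0.02 over 34 RO-3306 cells, between Sqstm1 and Gabarap 0.14 and 0.19, and between Map1lc3b and Gabarap 0.17 and 0.04. RO-3306 cell C11 was the highest cell for Sqstm1, Gabarap and Gabarapl2, with no count of Map1lc3b, Map1lc3a or Becn1. It also had the fewest genes of the kept RO-3306 cells, 2159 against a median of 6951. Of 3695 other genes of at least 50 CPM, the 3 most like Sqstm1 by the mean rho of both groups were Mki67 (0.48), Cct4 (0.45) and Ccng1 (0.43). For Map1lc3b they were Ctla2a (0.55), Lamp1 (0.45) and Tusc3 (0.43), and for Gabarap Cd63 (0.47), Sar1b (0.46) and Grik3 (0.42). Lamp1 and Cd63 encode lysosomal and late endosomal membrane proteins, and Mki67 is a marker of cycling cells. The level of Mki67 itself was 105 CPM in control against 12.5 CPM in RO-3306, opposite in direction to Sqstm1, so the likeness holds within groups and not between them. These are the top of a ranking of many genes over few cells that share depth and library preparation, and they are weak.

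Another 62 genes of the pathway were read by role, and 55 of them had at least 5 CPM. Of these, 5 were called higher, or 9.09% against 7.23% of all genes, and 1 was called lower, or 1.82% against 6.43%. Their median log2 ratio was 0.16, with 30 above and 25 below 0. The share called higher was near the background. Other genes passed the fold without 1 sign in all sets, and so were not called. Lower were Rubcn, Rb1cc1, Ambra1, Atg2b, Wdfy3, Tmem41b, Ykt6 and Calcoco1, from -2.23 for Rubcn to -1.17 for Calcoco1. Higher were Optn, Ccpg1, Atg4d, Atg9a and Plekhm1, from 1.10 for Optn to 1.63 for Atg4d. The roles differed in their medians, from 0.70 for 11 other receptors and 0.40 for 10 genes of ATG8 conjugation and processing to -0.62 for 4 partners of ULK1. These medians moved with mRNA length. After subtraction of each gene's length decile they were 0.89 for the other receptors, 0.78 for conjugation and processing, and 0.05 for the partners of ULK1. The genes for membrane supply moved from -0.0029 to 0.84, so the first 2 roles did not stand apart. The lipid kinase complex moved from 0.11 to 0.55, and fusion with the lysosome from -0.0076 to 0.44. Transcription factors and signalling genes moved from -0.11 to 0.02.

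Among the other receptors Bnip3, a receptor for mitochondria, was called. It had 59.4 CPM in control against 179 CPM in RO-3306, a log2 ratio of 1.57, and was caught in 9 of 29 and 34 of 37 cells. The set ratios were 2.15, 0.19, 2.28 and 6.78, and control cell B4, at 363 CPM, was the highest of its group and held 59.7% of its counts. Bnip3 counts were fractional in 83.7% of libraries, so similar sequences may share them. The related Bnip3l stood at 112 and 169 CPM, a log2 ratio of 0.58, and Tax1bp1, a receptor for ubiquitinated cargo, at 249 and 145 CPM, a log2 ratio of -0.78 with 1 sign in all sets. Neither reached the fold.

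None of the 10 genes that process ATG8 proteins and join them to lipid was called, and 8 of them were above 0. Atg7, the enzyme that activates ATG8 proteins, had 10.2 and 20.8 CPM, a log2 ratio of 0.96, and Atg3, the enzyme that passes them on, had 119 and 80.1 CPM, a log2 ratio of -0.56. Of the lipid kinase complex Nrbf2, a regulatory subunit, was called, with 6.64 and 23.8 CPM and a log2 ratio of 1.70. Its counts were fractional in 86.2% of libraries. Of the genes for membrane supply Wdr45, which encodes the WIPI family protein WIPI4, was called, with 15.0 and 68.2 CPM, a log2 ratio of 2.11 and counts in 6 of 29 and 27 of 37 cells. Its relative Wipi2 stood at 86.5 and 86.3 CPM. None of the 8 genes for fusion with the lysosome was called.

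Of the transcription factors and signalling genes Ddit3, which encodes the stress factor CHOP, had the largest ratio. Its control cells ran from 0 to 747 CPM with a median of 30.7 CPM, and RO-3306 cells from 0 to 1664 CPM with a median of 591 CPM. The sums were 60.9 CPM (59.0 to 62.8) and 566 CPM (561 to 571), a log2 ratio of 3.19 with 2.58, 4.20, 2.28 and 3.49 in the sets. Atf4, which encodes an activator of Ddit3 that is itself controlled largely at translation, stood at 1104 and 1046 CPM, a log2 ratio of -0.08. Trp53inp1, a p53 target whose protein binds ATG8 proteins, had 20.5 and 80.3 CPM and a log2 ratio of 1.92, though control cell A11 held 79.4% of the control counts. Rptor, a subunit of mTORC1, was the gene called lower, with 15.3 and 5.40 CPM and a log2 ratio of -1.35, from counts in 7 of 29 and 6 of 37 cells. Its length decile had a median of -0.85, and against that Rptor lay at -0.51, which is under the fold rule. Tfeb, a main activator of lysosome and autophagy genes, had 14.2 and 13.0 CPM, and Nfe2l2, which encodes NRF2, 102 and 91.0 CPM. Tfe3, Mitf, Foxo3 and Prkaa1 were under the minimum of 5 CPM in the mean of both groups, and were not called. Of these Foxo3 stood at 0.212 CPM against 6.77 CPM in RO-3306, was caught in 2 of 29 and 10 of 37 cells, and had a log2 ratio of 2.68, above 0 in all 4 sets.

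**Figure D5:**
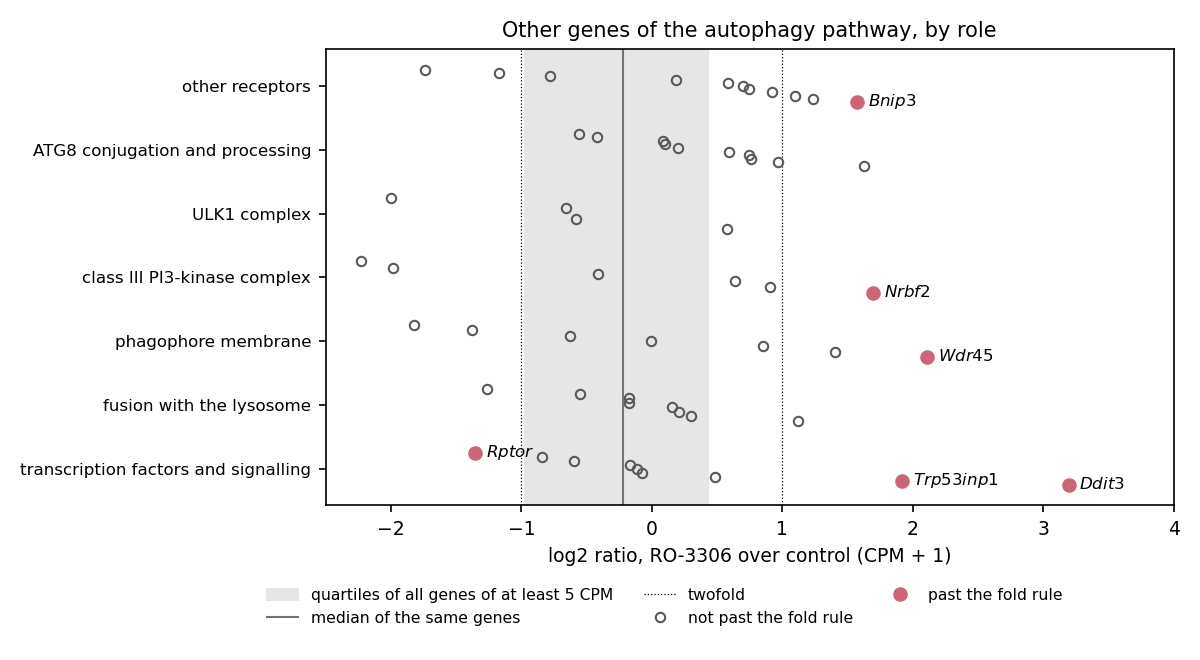
Log2 ratio of RO-3306 over control for the 55 other pathway genes of at least 5 CPM, 1 point each, in rows by role, with genes past the fold rule filled and named. Named to the right are 5 genes, led by Ddit3 at 3.19, and Rptor lies to the left at -1.35. The other points lie inside the grey quartile band and on both sides of it.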

How the data were processed

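Each library is a SMART-seq v4 cDNA library of 1 cell sorted with a CellenONE dispenser, read as single reads of 150 nt, per the labels' protocols. The authors deposited expected counts, obtained with featureCounts 2.0.3 on GRCm39 and its RefSeq genes, per the file headers. Counting covered whole gene spans, introns included, and gave each site of a multiply placed read an equal fraction. No strand or overlap option is recorded. The submitters' processing notes name FastQC and STAR without versions. Fractional means over 1e-06 from a whole number; counts were rounded for intervals and scaling factors.

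Sums have exact Poisson intervals, ratios exact conditional binomial intervals and shares exact Clopper-Pearson intervals. Thinning used percentile 10 of kept totals, rounded down to a multiple of 1000. The genes and lists were chosen with earlier results of these data known. Named genes are all 10 chosen genes, the pathway genes that passed the fold rule, and, for genes caught in at least 80% of cells of both groups, the 3 most like them; other pathway genes were named after their values were seen. Of all genes of at least 5 CPM, 94.3% had an mRNA length. No 2 kept libraries were identical. Steps were tested on simulated data. Tools were Python 3.11.15, numpy 2.4.6, pandas 2.3.3, scipy 1.17.1 and matplotlib 3.10.9, with edgeR 4.0.16 and DESeq2 1.42.0 in R 4.3.3 for scaling alternatives only.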

Additional observations from a re-analysis of the deposited data

Results flagged for a closer look

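Libraries that failed the limit on counts or the limit on genes with a count still held transcripts of the 3 called genes. By their summed total, some of those in RO-3306 met the limit on counts and had too few genes. In the 11 RO-3306 libraries left out, the summed level of Sqstm1 was 230.0 CPM (203 to 259), with a count in 6 of 11 libraries, 56.2% of it from library D10. Map1lc3b was at 64.8 CPM, with a count in 4 libraries and 86.7% of it from D10. Gabarap was at 33.5 CPM, with a count in 6 and 66.7% of it from library B8. In the 19 control libraries left out, the same genes stood at 82.1, 2.93 and 5.86 CPM, from 28, 1 and 2 counts. These sums rest on 1162603 counts in RO-3306 and 341166 in control, where 3 counts come to 2.58 and 8.79 CPM. The control values of Map1lc3b and Gabarap are under that limit, and no fold is given for them. No comparison above uses these libraries.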

How the results depend on the processing

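The median log2 ratio of the 10 genes stayed above 0 under every alternative. It was 0.75 with TMM factors, 0.77 with DESeq2 size factors, 0.80 with each cell weighted equally, and 0.77, 0.45, 0.77 and 0.66 without lettered set A, B, C or D. It was 0.60 without the highest cell of each group, 1.16 over the 7 genes of at least 50 CPM, and 0.92 after subtraction of the median in the same mRNA-length decile, an alternative chosen after seeing the data. The 0.92 rests on the longest transcript of each gene. By the median transcript length none of the 10 genes had a higher difference from its decile, and most had a lower one. Sqstm1, Map1lc3b, Becn1 and Wipi1 then lay at 1.08, 1.04, 0.46 and -0.93. The median over all genes moved as well, from -0.22 as reported to -0.02 with TMM factors and 0.0056 with DESeq2 size factors. It was -0.18 with each cell weighted equally and -0.09 over genes of at least 50 CPM. Sqstm1, Map1lc3b and Gabarap were called higher under every alternative for which the fold rule was run, which leaves out the subtraction by mRNA length. Over all alternatives for single genes, with that subtraction by the longest transcript included, their log2 ratios ran from 1.09 to 1.43, 1.07 to 1.40 and 1.22 to 1.58. Gabarapl2 joined them with TMM or DESeq2 factors, with cells weighted equally, without set D and without the highest cells. Of all genes, the share called higher ran from 2.20% with no filter on low values to 11.3% without set B. The count called lower, 0, became 1 without set A (Wipi1) and 1 without set C (Nbr1), where 9.80% and 11.5% of all genes were called lower. The signs of Nbr1 and Ulk1 held in 10 of 16 alternatives each, and that of Map1lc3a in 15 of 16.

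The other pathway genes called higher, 5 (7.23% of all genes), were 8 with TMM or DESeq2 factors (9.30% and 9.59% of all genes). They were 10 with cells weighted equally (7.96% of all genes), 13 without set A (10.8%) and 3 at a minimum of 50 CPM (6.02%). They were 9 with thinned cells (8.05%), without set C (9.11%) and without set D (9.34%). They were also 9 without the highest cells (9.19%) or at a fold of 1.5 (10.6%). Those called lower, 1 (6.43% of all genes), were 0 with a pseudocount of 5 CPM (5.81%) or with thinned cells (5.90%). They were also 0 without the highest cells (3.03%) or at a minimum of 50 CPM (7.83%). They were 3 without set A (9.80%), and 2 without set C (11.5%), without set D (10.5%) or at a fold of 1.5 (8.51%). Without a set, the rule asked for 1 sign in the remaining sets only. The cause of these moves was not tested. Of 160 ratios of single genes under the alternatives, 89 left the counting interval of the ratio as reported, so that interval understates how far the ratios move with cells and scaling. Of 40 shares of cells 5 left the binomial interval of the share without thinning, and of 24 ATG8 shares 9 moved by more than the spread between sets. No paired analysis was possible because each group is 1 sample and no result comes from a test.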
